A study of Mus musculus with 6 samples.

Results

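The genes described here are Cd93, Clec14a, Thbd and Cd248, which encode a small family of membrane lectins, and Mmrn2 and Mmrn1, which encode the multimerins. They are 6 of the 19938 genes that had a probe set with a single gene symbol, and all 6 were measured, each by 1 such probe set. The genes were listed by family, and the family was chosen by the measured difference of Cd93 between the sorted populations, the 8th largest of 19938. The Cd93 difference is therefore given as a description with no test. The other 5 genes came with it, and their tests are values of the fit over all genes, in the same contrast that led to the choice.

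Mouse primary bone marrow was dissociated and sorted by flow cytometry for cells that lacked the leukocyte marker CD45 and the erythroid marker Ter119 and carried CD73, an adenosine-producing ectoenzyme. These cells were divided into CD73+CD105+ samples (n = 3) and CD73+CD105- samples (n = 3), by the presence of CD105, also called endoglin, an accessory receptor of TGF-beta signalling. No strain, age, genotype or treatment of the mice is given in the sources used here, and the labels, which call the samples biological replicates, do not give the animals behind them. The p-values therefore reflect only how these samples vary. Total RNA of each sample was read on 1 array, and the series title places the work in bone marrow stroma transplanted along with blood stem cells.

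CD93, CLEC14A, thrombomodulin (encoded by Thbd) and endosialin (encoded by Cd248) are single-pass membrane proteins with a C-type lectin-like domain at the outer end, EGF-like repeats below it and a mucin-like stem. CD93 and CLEC14A are known from endothelium, where they act in cell adhesion, migration and vessel sprouting. Thrombomodulin binds thrombin and turns it towards activating the anticoagulant protein C, and endosialin is known from fibroblasts and pericytes. Multimerin-2 is a secreted protein of the vessel wall that, in work on human proteins, binds CD93, CLEC14A and endosialin. Multimerin-1 is its relative from platelets and some endothelium and binds coagulation factor V.

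Values are RMA values on the log2 scale, so a difference of 1 is a doubling. Differences are CD73+CD105+ minus CD73+CD105-, with moderated standard errors (SE), and a gene is said to have risen or fallen where limma gave an adjusted p under 0.05 over all 19938 genes. Probe sets differ in brightness for the same amount of RNA, so levels are set side by side within a gene only. Olfactory and vomeronasal receptor genes, which have no known role in marrow, served as a guide to background: the 95th percentile of their means (1190 genes) was 6.01. Array medians lay between 6.27 and 6.35. For most genes the 2 replicate 1 arrays averaged nearly the same as the 4 remaining arrays (SD of the gap 0.0423 log2). The 8 other ways of pairing a CD73+CD105+ with a CD73+CD105- array gave SDs of at least 0.122, and no label describes such a relation. The test takes the arrays of a group as independent, which this relation departs from, so its p-values may be too small. Of all genes 363 passed, and 101 did with a term for the replicate 1 arrays added to the fit. This term leaves the differences as they were (1.63 for Clec14a in both fits) and does not remove the relation. A pass with the term is therefore no check on that relation. Member values are therefore given also for replicates 2 and 3 alone. Of the sort marker genes, Eng (CD105) read 8.06 ± 0.25 in CD73+CD105+ samples, against 6.30 ± 0.21 in CD73+CD105- samples (SD, n = 3 each). Nt5e (CD73) read 10.37 ± 0.08 in CD73+CD105+ samples, against 10.63 ± 0.12 in CD73+CD105- samples, and Ptprc (CD45) lay under the receptor gene percentile on all 6 arrays.

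RefSeq upstream sequence (GRCm38.p6) was matched for 2 of the 6 genes, and both are shown: Clec14a, which rose, and Mmrn1, which lay below the receptor gene percentile on every array. The promoter set used here held no window for Cd93, Thbd, Cd248 or Mmrn2. Each window holds the 250 bases before the annotated start, read 5′ to 3′ on the gene's strand, with the GGAA core that ETS family factors are known to bind, or its reverse complement TTCC, in capitals. The Clec14a window lies at chr12:58269259-58269508 on the minus strand and the Mmrn1 window at chr6:60944067-60944316 on the plus strand.
Clec14a: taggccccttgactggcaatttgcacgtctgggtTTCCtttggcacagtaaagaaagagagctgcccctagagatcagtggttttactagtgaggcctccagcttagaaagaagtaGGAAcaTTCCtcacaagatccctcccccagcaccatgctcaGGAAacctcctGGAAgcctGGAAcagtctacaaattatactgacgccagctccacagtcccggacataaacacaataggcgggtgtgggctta
Mmrn1: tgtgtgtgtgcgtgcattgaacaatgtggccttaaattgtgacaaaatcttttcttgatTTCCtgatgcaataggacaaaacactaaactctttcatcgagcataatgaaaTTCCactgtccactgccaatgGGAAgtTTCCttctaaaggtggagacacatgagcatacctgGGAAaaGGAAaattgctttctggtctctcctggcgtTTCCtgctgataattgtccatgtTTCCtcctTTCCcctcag
The Clec14a window held 6 GGAA cores over both strands, and 8.69% of 32851 RefSeq promoters held at least as many in the same length. The Mmrn1 window held 9, a number reached by 0.505% of promoters. The part of these cores in the level of either gene was not tested. At least 1 core stood in 93.4% of promoters, with a median of 3. Of 4 longer motifs searched on both strands, CGGAAG (in 13.6% of promoters), AGGAAG (29.5%), CCACCC (28.1%) and TATAAA (12.4%), 0 stood in either window. The GGAA search was added after these had no match. CGGAAG and AGGAAG contain GGAA.

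Cd93 was 11.4 times as high in CD73+CD105+ as in CD73+CD105- samples. The 3 CD73+CD105+ samples read 9.71, 9.17 and 9.81 for replicates 1, 2 and 3, and the 3 CD73+CD105- samples read 5.96, 6.02 and 6.19. The lowest CD73+CD105+ sample stood 2.98 above the highest CD73+CD105- sample. The means were 9.57 ± 0.34 in CD73+CD105+ and 6.06 ± 0.12 in CD73+CD105- samples (SD, n = 3 each), a difference of 3.51 (SE 0.17). Since CD73+CD105- samples stood at about the receptor gene percentile, and RMA compresses values near background, this fold may be understated. In bulk samples such as these, fewer cells of a type and less RNA per cell cannot be told apart.

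Clec14a, an endothelial lectin, rose 3.1-fold. It read 7.32, 7.12 and 6.91 in CD73+CD105+ replicates 1, 2 and 3, against 5.36, 5.58 and 5.52 in CD73+CD105- replicates 1, 2 and 3. All CD73+CD105+ samples lay above the receptor gene level of 6.01 and all CD73+CD105- samples below it, with a gap of 1.34 between the nearest samples. The means were 7.12 ± 0.20 in CD73+CD105+ and 5.49 ± 0.11 in CD73+CD105- samples (SD, n = 3 each), and the difference was 1.63 (SE 0.12, limma adjusted p = 0.00134). With the term for replicate 1 the adjusted p was 0.0057. In replicates 2 and 3 alone the difference was 1.47 (adjusted p = 0.0369), and leaving out 1 array at a time gave 1.53 to 1.74, past the threshold each time.

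Thbd, the thrombin receptor of the protein C pathway, stood well above the receptor gene percentile in both populations, and its difference did not pass the test. CD73+CD105+ replicates 1, 2 and 3 read 9.03, 8.98 and 8.75, and CD73+CD105- replicates 1, 2 and 3 read 8.53, 8.76 and 8.44. The groups overlapped slightly, since CD73+CD105- replicate 2 lay above CD73+CD105+ replicate 3. The means were 8.92 ± 0.15 in CD73+CD105+ and 8.58 ± 0.16 in CD73+CD105- samples (SD, n = 3 each). The difference of 0.34 (SE 0.11) did not pass (limma adjusted p = 0.18), and its 95% interval, not adjusted for the number of genes, ran from 0.08 to 0.61. Thbd and Cd93 are neighbours on the chromosome, with 0 protein-coding genes between them in GRCm38.p6.

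Cd248, the lectin of fibroblasts and pericytes, was bright in both populations. It read 10.25, 10.21 and 10.67 in CD73+CD105+ replicates 1, 2 and 3, against 9.68, 9.16 and 9.89 in CD73+CD105- replicates 1, 2 and 3. The groups did not overlap, with a gap of 0.32 between the nearest samples, which was less than the spread within CD73+CD105- samples. The means were 10.38 ± 0.25 in CD73+CD105+ and 9.58 ± 0.38 in CD73+CD105- samples (SD, n = 3 each). The difference of 0.80 (SE 0.20, 1.74-fold) did not pass over all genes (limma adjusted p = 0.107; unadjusted 95% interval 0.32 to 1.28). It was 0.92 in replicates 2 and 3 alone and 0.57 in the replicate 1 pair.

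Mmrn2, the multimerin of the vessel wall, rose 4.28-fold. Its CD73+CD105+ samples read 7.73, 7.18 and 7.54 for replicates 1, 2 and 3, and its CD73+CD105- samples 5.32, 5.29 and 5.55. As with Clec14a, the receptor gene percentile lay between the groups, which were 1.63 apart at their nearest samples, so both folds may be understated in the same way as that of Cd93. The means were 7.48 ± 0.28 in CD73+CD105+ and 5.38 ± 0.14 in CD73+CD105- samples (SD, n = 3 each), a difference of 2.10 (SE 0.15, limma adjusted p = 0.00134). With the term for replicate 1 the adjusted p was 0.00404. Replicates 2 and 3 alone gave 1.94 (adjusted p = 0.0416), and leaving out 1 array at a time gave 1.97 to 2.25, past the threshold each time.

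Mmrn1, the platelet multimerin, read 3.51, 3.52 and 3.75 in CD73+CD105+ replicates 1, 2 and 3, against 3.64, 3.50 and 3.47 in CD73+CD105- replicates 1, 2 and 3. All 6 samples lay below the median of the receptor genes (4.05), and the groups overlapped. The difference was 0.06 (SE 0.09, limma adjusted p = 0.80; unadjusted 95% interval -0.16 to 0.27), and its sign was the opposite in the replicate 1 pair. With no level above background in either population, the interval limits the signal of the probe set and says nothing of a change in transcript.

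**Figure D1:**
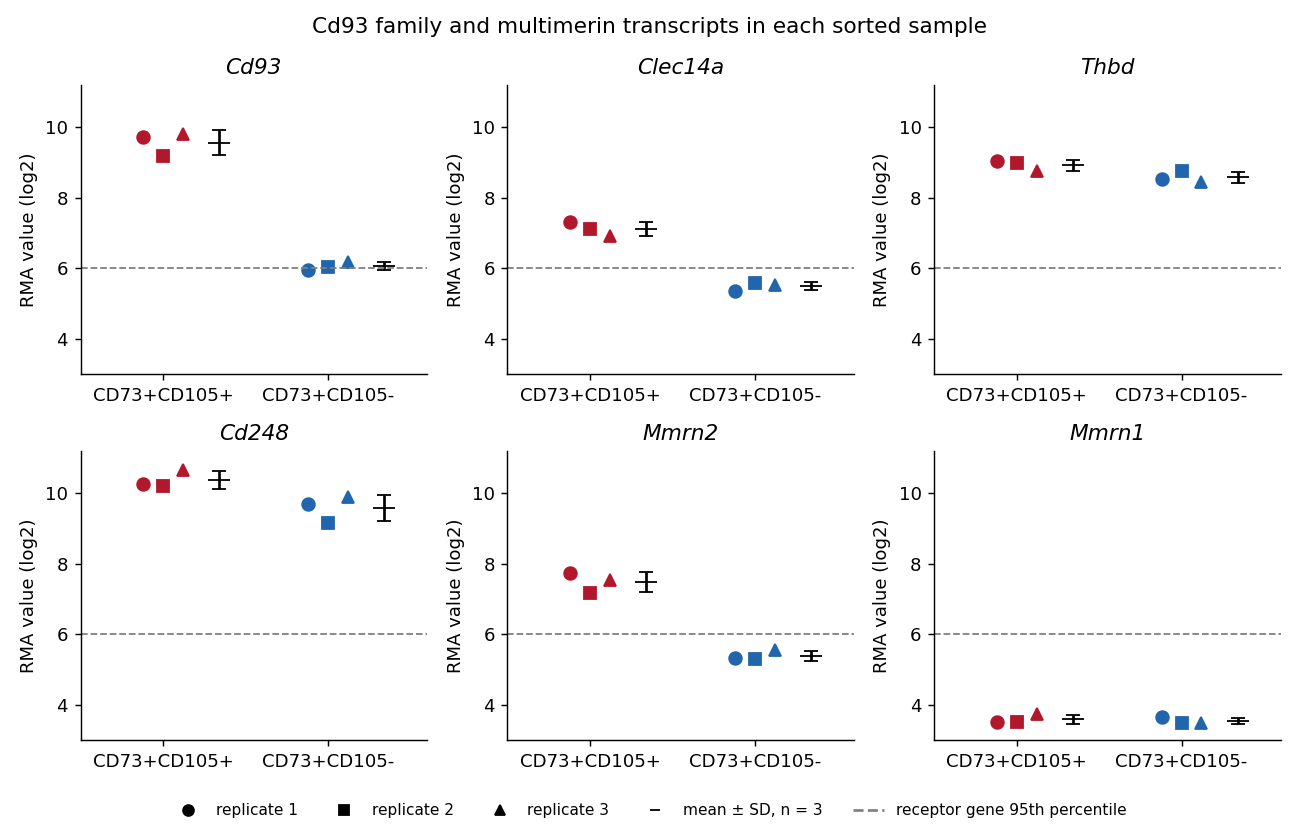
RMA values (log2, vertical axis) of the 6 genes in CD73+CD105+ samples (red, left) and CD73+CD105- samples (blue, right); symbols are single samples by replicate, bars are mean ± SD (n = 3), and the dashed line is the receptor gene percentile at 6.01. Cd93, Clec14a and Mmrn2 lay well above the line in CD73+CD105+ samples and near or below it in CD73+CD105- samples, Thbd and Cd248 lay above it in both, and Mmrn1 below it in both; levels of different genes are not comparable.

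Of the 5 genes other than Cd93, 2 rose (Clec14a and Mmrn2), 0 fell and 3 did not pass, beside 1.82% of all genes that passed in either direction (1.35% higher and 0.466% lower). In 4 of the 6 genes (Cd93, Clec14a, Cd248 and Mmrn2) all CD73+CD105+ samples lay above all CD73+CD105- samples, beside 10.7% of all genes (23.7% where separation in either direction counts). Nothing is read from these counts, since the Cd93 difference in this contrast led to the choice of the family. The differences ran from 3.51 for Cd93 through 2.10 for Mmrn2, 1.63 for Clec14a, 0.80 for Cd248 and 0.34 for Thbd to 0.06 for Mmrn1, beside a median of -0.02 over all genes. Those of Cd93, Clec14a, Thbd and Mmrn2 were larger in the replicate 1 pair (3.75, 1.96, 0.50 and 2.41) than in replicates 2 and 3 (3.39, 1.47, 0.27 and 1.94), while that of Cd248 was smaller.

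**Figure D2:**
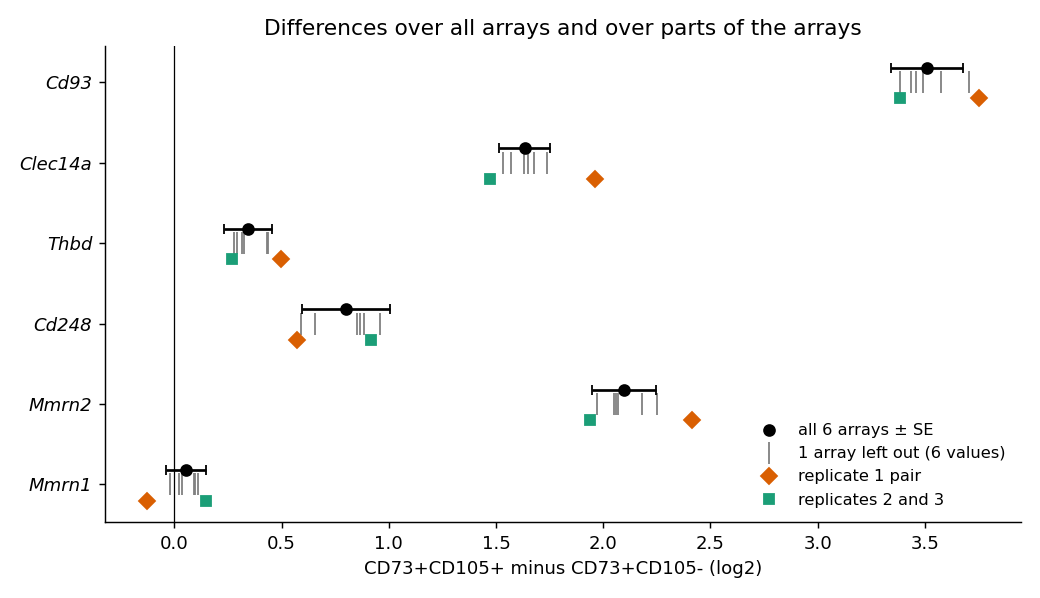
Difference CD73+CD105+ minus CD73+CD105- (log2, horizontal axis) for each gene: black points are the estimate over all 6 arrays ± SE, grey ticks the 6 estimates with 1 array left out, orange diamonds the replicate 1 pair and green squares replicates 2 and 3. The marks of Cd93, Clec14a and Mmrn2 lie between 1.47 and 3.75, those of Thbd and Cd248 between 0.27 and 0.96, and those of Mmrn1 on both sides of 0.

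The list of binding partners holds 18 proteins known to bind the lectins or multimerin-2, to act with them or to cut them, and all 18 were measured: 3 rose, 0 fell and 15 did not pass, with a median difference of 0.09, beside 1.35% of all genes higher, 0.466% lower and a median of -0.02. Cdh5, the cadherin of endothelial junctions that acts with CD93, rose by 3.34 (SE 0.16, limma adjusted p = 0.000272), reading 9.50 ± 0.23 in CD73+CD105+ samples, against 6.16 ± 0.26 in CD73+CD105- samples (SD, n = 3 each). Kdr, the VEGF receptor, rose by 1.31 (SE 0.17, limma adjusted p = 0.0182), and Mmp9, a protease that can cut multimerin-2, by 1.18 (SE 0.17, limma adjusted p = 0.0226). With a term for the replicate 1 arrays, under which 0.507% of all genes passed, only Cdh5 of these 18 did, and the adjusted p was 0.052 for Kdr and 0.0642 for Mmp9. Cdh5 was also the only one past the threshold in replicates 2 and 3 alone, where 29 of all 19938 genes passed. The same held without CD73+CD105+ replicate 1 (86 genes passed), CD73+CD105- replicate 1 (87) or CD73+CD105- replicate 2 (150). Without CD73+CD105+ replicate 3, where 169 genes passed, Cdh5 and Kdr did. The main fit had 363, so calls were lost over all genes and not only among the partners.

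The remaining 15 partners include secreted and matrix ligands and proteins at the inner face of the membrane. Col4a1, a basement membrane collagen that endosialin binds, came nearest to the threshold, with a difference of 0.36 (SE 0.07, limma adjusted p = 0.0586). Its groups did not overlap. They read 7.76, 7.70 and 7.86 in CD73+CD105+ replicates 1, 2 and 3, against 7.46, 7.41 and 7.36 in CD73+CD105- replicates 1, 2 and 3. Col4a1 passed with array weights, where 1331 of all genes did against 363 in the main fit. With the term for replicate 1 its limma adjusted p was 0.189. Igfbp7, a secreted ligand of CD93, read 12.06 ± 0.06 in CD73+CD105+ samples, against 11.93 ± 0.06 in CD73+CD105- samples (SD, n = 3 each), a difference of 0.13 that did not pass. Hspg2 (perlecan), a heparan sulphate proteoglycan that binds CLEC14A, differed by -0.23 (SE 0.11), and Fn1 (fibronectin), a ligand of endosialin, by -0.03 (SE 0.07). Vegfa, the growth factor that multimerin-2 can bind, differed by -0.06 (SE 0.09), Dag1 (dystroglycan) by 0.12 (SE 0.07), and Msn (moesin), which links the CD93 tail to actin, by 0.09 (SE 0.07). Igfbp7, Hspg2, Fn1, Vegfa, Dag1 and Msn had adjusted p-values of at least 0.314 in limma. Over the whole list, 4 of 18 genes (Cdh5, Kdr, Mmp9 and Col4a1) had an unadjusted p under 0.05, beside 17.7% of all genes.

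Around thrombomodulin, 1 of 11 measured protein C and coagulation genes rose, 0 fell and 10 did not pass (median difference 0.05). An unadjusted p under 0.05 was found for 4 of them (Tfpi, F2r, Procr and F3), beside 17.7% of all genes. Over all genes 1.35% were higher and 0.466% lower. Tfpi, the inhibitor of the tissue factor pathway, rose by 0.98 (SE 0.10, limma adjusted p = 0.00784). It read 7.21, 6.96 and 6.83 in CD73+CD105+ replicates 1, 2 and 3, against 6.03, 5.98 and 6.05 in CD73+CD105- replicates 1, 2 and 3. With the term for replicate 1 its limma adjusted p was 0.0175. A pass with this term is no check on the relation between the replicate 1 arrays and the others. F2r, the thrombin receptor PAR1, differed by 0.66 (SE 0.22, adjusted p = 0.189). Procr, the endothelial protein C receptor that presents protein C to the thrombin and thrombomodulin complex, read 7.82, 7.76 and 7.83 in CD73+CD105+ replicates 1, 2 and 3, against 7.42, 7.39 and 7.51 in CD73+CD105- replicates 1, 2 and 3. The Procr groups did not overlap, and its difference of 0.36 (SE 0.07) lay just short of the threshold (limma adjusted p = 0.0516). With the term for replicate 1 the Procr adjusted p was 0.177. F3, tissue factor, the receptor that starts coagulation, was lower without overlap, at 8.41, 8.62 and 7.72 in CD73+CD105+ replicates 1, 2 and 3, against 8.75, 9.11 and 8.71 in CD73+CD105- replicates 1, 2 and 3. The F3 difference of -0.61 (SE 0.23) did not pass (adjusted p = 0.239), nor did that of F5, the factor V that multimerin-1 binds, at -0.51 (SE 0.37, adjusted p = 0.522). Procr, F3 and F5 were named after their values were seen. F2, Proc and Serpinc1, known as liver products, and Serpina5 were under the receptor gene percentile in each population.

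The multimerins belong to the EMILIN family of matrix glycoproteins, and none of its 3 other members passed in limma (1 had an unadjusted p under 0.05). Over all genes 1.82% passed and 17.7% had an unadjusted p under 0.05. Emilin1, of elastic fibres, differed by -0.33 (SE 0.08, adjusted p = 0.107), reading 7.92 ± 0.07 in CD73+CD105+ samples, against 8.25 ± 0.11 in CD73+CD105- samples (SD, n = 3 each). Emilin3 differed by 0.12 (SE 0.09) and, outside the rule for named genes, Emilin2 by 0.03 (SE 0.10). Of 10 transcription factors known from vessel genes, 1 rose, 0 fell and 9 did not pass (median difference -0.04). An unadjusted p under 0.05 was found for 3 of them (Epas1, Fli1 and Erg), beside the same 17.7%. Over all genes 1.35% were higher and 0.466% lower. Epas1, the HIF-2 alpha factor of endothelium, rose by 1.08 (SE 0.15, limma adjusted p = 0.0217; 0.0642 with the term for replicate 1), and Fli1, an ETS factor, differed by 0.47 (SE 0.12, adjusted p = 0.112). Outside the rule for named genes, the ETS factor gene Erg differed by 0.31 (SE 0.09, adjusted p = 0.136). Klf2 and Klf4, flow-responsive factors that are known to raise Thbd, also outside the rule, differed by -0.17 (SE 0.08) and -0.23 (SE 0.12) and did not pass. In this list the groups did not overlap for Epas1, Fli1 and Erg, which were higher in CD73+CD105+ samples. They did not overlap either for Klf2, Mef2c and Hif1a, which were lower. Over all genes 23.7% separated in either direction.

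**Figure D3:**
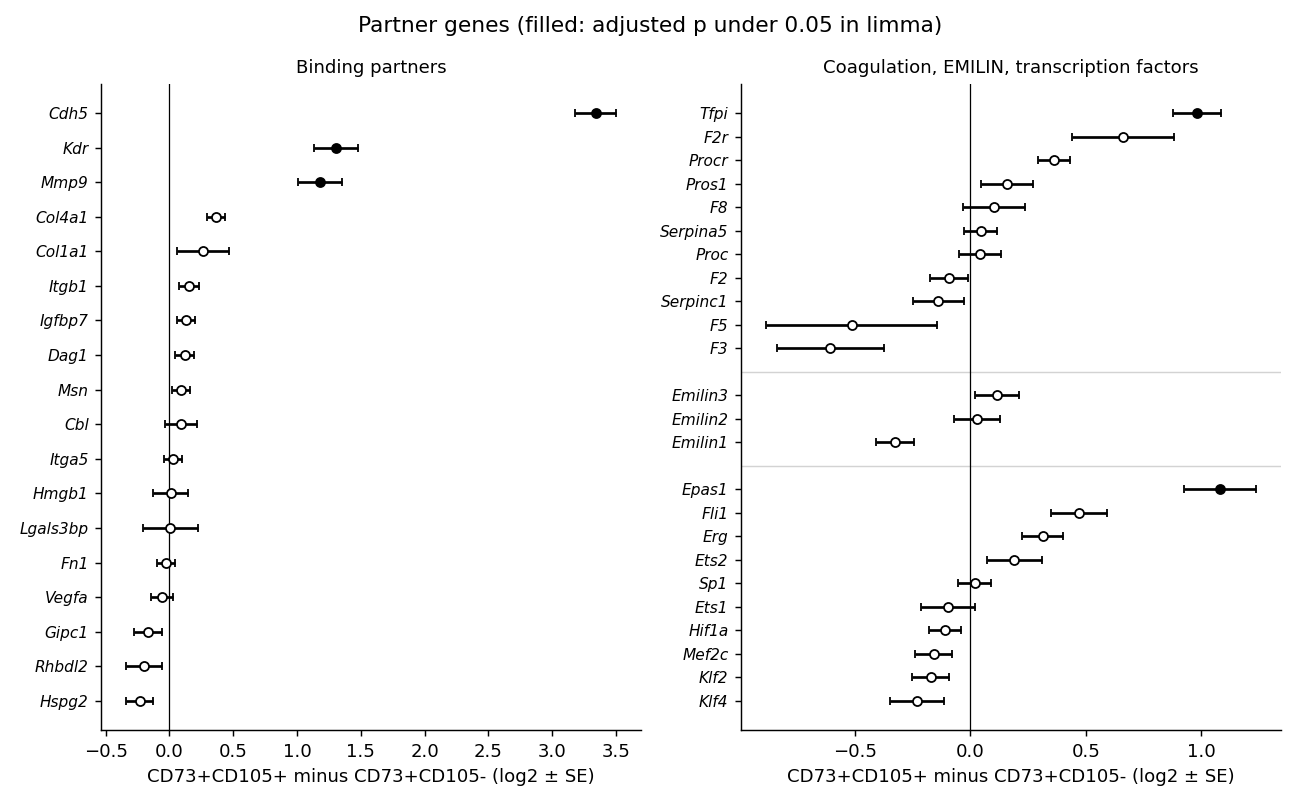
Difference CD73+CD105+ minus CD73+CD105- (log2 ± SE, horizontal axis) of the 18 binding partners (left) and of the coagulation, EMILIN family and transcription factor lists (right, separated by grey lines); filled points passed limma at an adjusted p under 0.05. Cdh5 at 3.34 stands apart from the other partners, and 5 of the 42 genes shown passed, all of them higher in CD73+CD105+ samples. Over all genes 1.35% passed as higher.

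Lists of cell type markers were read beside the members. The pan-endothelial list had 11 of 12 genes higher past the threshold and 0 lower, with Cldn5 short of it, and 8 with the term for replicate 1. Over all genes 1.35% were higher and 0.466% lower, and with that term 0.507% passed in either direction. The mean RMA value of the list per array lay between 7.81 and 8.08 in CD73+CD105+ samples and between 5.79 and 6.03 in CD73+CD105- samples. Emcn, an endothelial sialomucin, rose by 4.61, Pecam1, a junction receptor, by 3.63 and Ptprb, a phosphatase of vessel walls, by 2.94. This list holds Cdh5 and Kdr, which are also binding partners, and Eng, the gene of the sort marker. The part of endothelial cells in the Cd93, Clec14a and Mmrn2 differences was not tested.

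For Cd248, 4 of 10 pericyte and smooth muscle genes rose, 0 fell and 6 did not pass, beside 1.35% of all genes higher and 0.466% lower. The list had a mean per array of 7.85 to 8.05 in CD73+CD105+ and 7.31 to 7.48 in CD73+CD105- samples. The genes that rose were Rgs5 (1.72), Tagln (0.98), Abcc9 (0.66) and Mcam (0.58), and with the term for replicate 1 only Tagln passed. Cspg4 (NG2), a pericyte marker also known from cartilage and named after its values were seen, was lower without overlap, with a difference of -0.47 (SE 0.10) that did not pass (adjusted p = 0.0634). Of 9 measured fibroblast and reticular stroma genes 2 rose, Cxcl12 (1.31) and Lepr (0.93), and 0 fell, with a mean per array of 11.28 to 11.45 in CD73+CD105+ and 10.75 to 10.97 in CD73+CD105- samples. With the term for replicate 1, Lepr alone of these passed. The part of these cells in the Cd248 difference was not tested.

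Multimerin-1 is known from platelets and lymphatic vessels, and CD93 also from some blood cells. Of 8 measured megakaryocyte and platelet genes 0 passed in limma (1 had an unadjusted p under 0.05). Over all genes, for this list and those that follow, 1.82% passed and 17.7% had an unadjusted p under 0.05. The platelet chemokine genes Ppbp (difference 0.55) and Pf4 (0.23) were under the receptor gene percentile in each population, as were Gp9 and Clec1b. Of 5 lymphatic genes 1 rose, Reln (0.56), which did not pass with the term for replicate 1. Lyve1, a hyaluronan receptor, differed by 0.44 and did not pass, and the defining factor Prox1 and the receptor Flt4 were under the receptor gene percentile in each population. Of 10 leukocyte and myeloid genes 0 passed in limma (2 had an unadjusted p under 0.05). Lyz2 differed by 0.38 and Tyrobp by -0.29, and 7 of the 10, Ptprc and Csf1r among them, lay below the percentile in both populations, with a mean per array of 5.30 to 5.43 in CD73+CD105+ and 5.25 to 5.44 in CD73+CD105- samples. Of 4 measured erythroid genes 0 passed (0 at an unadjusted p under 0.05), with Alas2 at -0.15 and Epor at -0.11. Of 8 chondrocyte genes 0 passed (5 had an unadjusted p under 0.05), all 8 lay below 0, as did 55.6% of all genes (list median -0.29), and Col11a2 and Matn3 differed by -0.43 and -0.42.

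Genes nearest in pattern to each member were found by the root mean square distance between the 6 log2 values after each gene was centred on its own mean. Nearest to Cd93 were Cdh5 (distance 0.221), Pecam1 (0.252), the adhesion receptor gene Adgrl4 (0.311), Ptprb (0.312) and Fabp4, which carries fatty acids in capillaries and adipocytes (0.346). Among CD73+CD105+ samples Cd93 was lowest in replicate 2, where it was 1.36 above its mean against 1.90 and 2.00 in replicates 1 and 3. The nearest to Clec14a was F11r, a tight junction receptor (0.0596), followed by Chp2 (0.12) and Pgm5 (0.15). Nearest to Mmrn2 were the apelin receptor gene Aplnr (0.126), Vwf, the platelet-binding factor of endothelium (0.145), and the VEGF receptor gene Flt1 (0.152).

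Of the 5 members compared, Cd93 alone had genes of the pan-endothelial list among its nearest (Cdh5, Pecam1 and Ptprb). For Cd93 5 nearest genes were taken and for each other member 3, but Cdh5 and Pecam1 already ranked 1 and 2 for Cd93. However, Vwf, a factor of endothelium near Mmrn2, is not on that list, so the list genes near Cd93 do not set it apart. Nearest to Cd248 were F2r (0.0748), Fgl2, a fibrinogen-like protein (0.0942), and Mfap5, a microfibril protein of connective tissue (0.0987). Cd248 and F2r were both lowest in CD73+CD105- replicate 2 (0.82 and 0.80 below their means) and highest in CD73+CD105+ replicate 3 (0.69 and 0.65 above). Nearest to Thbd were Ccn5, a secreted matricellular protein (0.0499), Fam174b (0.05) and Fah, an enzyme of tyrosine breakdown (0.0539); their differences were 0.28, 0.33 and 0.29. Among the pairs of these 5 members, Clec14a and Mmrn2 lay nearest to each other (distance 0.301) and Cd93 and Thbd farthest apart (1.61). These distances describe 6 arrays, and they are set largely by the size of the difference between the populations.

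**Figure D4:**
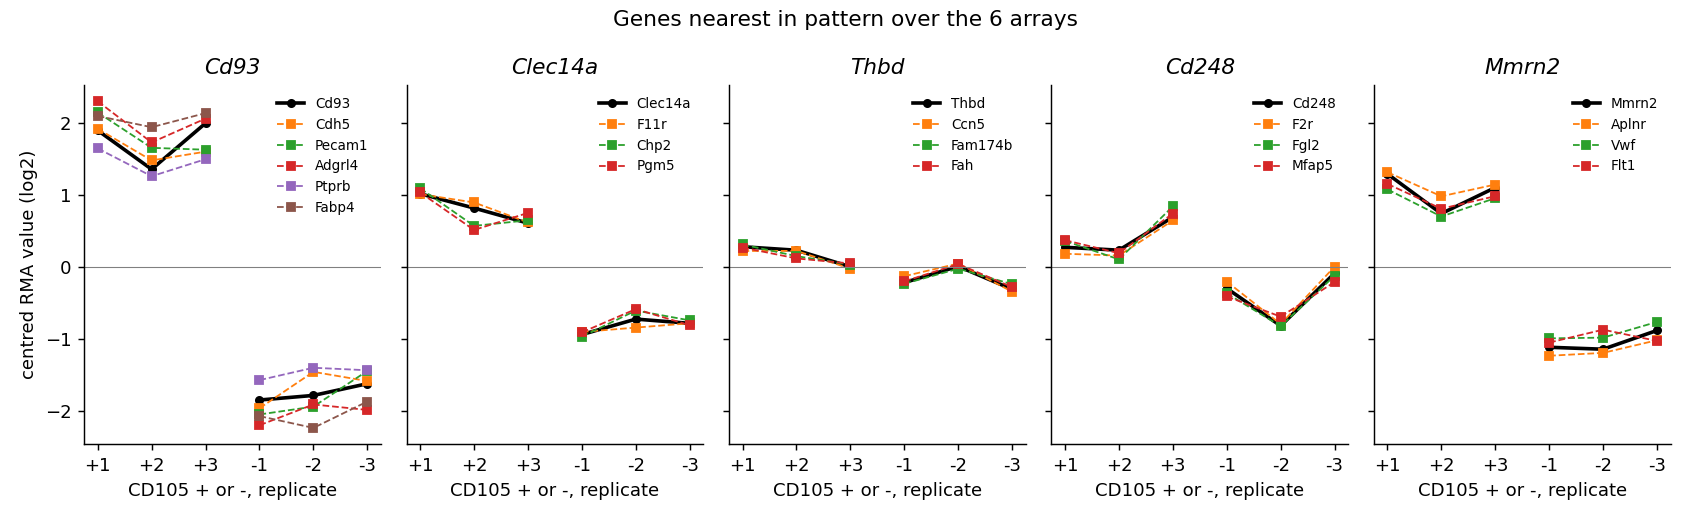
Centred RMA values (log2, vertical axis) of 5 members (black) and of the genes nearest in pattern (coloured, dashed) in the 3 CD73+CD105+ samples (+1 to +3) and the 3 CD73+CD105- samples (-1 to -3); Mmrn1 lay below the receptor gene percentile and is left out. Of the 5 members shown, the gap between populations is widest for Cd93 (difference 3.51), and Cd248 and its nearest genes share a low value in CD73+CD105- replicate 2.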

How the data were processed

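The deposited table holds log2 expression values for 35556 probe sets, made by the authors with RMA, per the submitters' processing notes; RMA corrects background, equalises array distributions and combines probes. Its version and any genome build are not stated there, and the log base is that of RMA. There were no detection calls. Only the 21789 probe sets with a single gene symbol were used (1621 carried several and 12146 none), taking for each gene the one with the highest mean over the 6 arrays. The members were read by probe sets 10488382 (Cd93), 10400510 (Clec14a), 10488378 (Thbd), 10460541 (Cd248), 10414102 (Mmrn2) and 10538706 (Mmrn1).

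Groups and replicate numbers came from the sample titles. Differences were tested with limma 3.58.1 in R 4.3.3 (lmFit and eBayes, two-sided, no block, Benjamini-Hochberg over 19938 genes), tried first on simulated data. Precision is limited by having 3 arrays a group; differences had a median SE of 0.0928. No filter on dim genes was applied. Members and the 12 gene lists (105 of 114 symbols measured) were chosen with earlier results of these data known. Named genes were, per list, up to 4 past the threshold with the largest differences, or the leading 2 where fewer than 2 passed, and the 5 (Cd93) or 3 (other members above the receptor gene percentile) nearest in pattern. Among binding partners, those that did not pass were named by role, after their values were seen; other exceptions are marked. Alternatives were the replicate number as a block, a term for replicate 1, subsets of arrays, other scalings, a filter on dim genes, averaged probe sets and other variance models.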

Additional observations from a re-analysis of the deposited data

How the results depend on the processing

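The number of genes past the threshold, 363 as reported, was 215 with the replicate block, 101 with a term for replicate 1, 29 in replicates 2 and 3 only, 1331 with array weights and 86 to 293 with 1 array left out. Without empirical Bayes, where each gene's spread rests on its own 6 values, limma's linear model called 0 genes, 0 of the 5 members and 0 binding partners, with 3068 genes at an unadjusted p under 0.05. Clec14a and Mmrn2 (2 of the 5 members) passed with each array left out and in the other alternatives run; without empirical Bayes their adjusted p was 0.0676 and 0.0755. The replicate 1 pair gave larger differences for them, 1.96 and 2.41. Binding partners past the threshold numbered 3, against 1 with the term for replicate 1, 1 in replicates 2 and 3 only, 1 to 3 with 1 array left out and 4 with array weights, which added Col4a1. The Cd93 difference ranged from 3.38 to 3.75 over the 17 alternatives. Thbd passed in 0 of its 16 tested alternatives (adjusted p 0.064 to 0.64), and the Mmrn1 difference turned to -0.0074 with array weights, -0.13 in the replicate 1 pair and -0.021 without CD73+CD105+ replicate 3, against a highest leave-one-out value of 0.11. The cause of these shifts was not tested.

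No label says that the replicate numbers pair samples. Same-numbered samples' deviations correlated at -0.883, 0.00659 and 0.104 for replicates 1, 2 and 3, and 0 of the 3 CD73+CD105+ samples correlated best with its own number, so the numbers were not taken as pairs. With the replicate block the Cd248 difference of 0.80 passed (adjusted p = 0.0434), its only pass in 16 tested alternatives. The values of dim genes (Mmrn1, and Clec14a and Mmrn2 in CD73+CD105- samples) are limited by background.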

Other observations

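The genes next to Cd93 on the chromosome are given as a description. Cd93 was chosen for its difference of 3.51, which 0.0351% of genes exceeded. Almost any neighbours would therefore have differed less, and nothing is read from the comparison. The 3 nearest measured protein-coding genes on each side in GRCm38.p6 were taken by position, a choice made after the member values were seen. On the side of Thbd (0.34), Sstr4, a somatostatin receptor gene, differed by 0.13 (SE 0.11) and Foxa2, a forkhead factor gene, by -0.03 (SE 0.08). On the other side Nxt1, an RNA export factor gene, differed by 0.34 (SE 0.15), Gzf1, a zinc finger gene, by -0.17 (SE 0.11) and Napb, of vesicle fusion, by -0.01 (SE 0.07). None of these 6 neighbours passed in limma (lowest adjusted p 0.18, for Thbd), beside 1.82% of all genes. Thbd alone had an unadjusted p under 0.05, beside 17.7% of all genes, and nothing is read from these counts.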
